A study of Mus musculus with 6 samples.

Results

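The genes described here are 10 direct targets of the transcription factor p53, out of 49315 genes in the count tables. They were chosen by symbol as known p53 targets in cell cycle arrest, apoptosis and feedback, and all 10 were found in the tables and passed the filter on low counts. These genes and the other lists below were chosen with earlier results of these data known. The values come from RNA sequencing of gastrocnemius, the large calf muscle, of mice aged 3 months on a mixed C57BL/6 and 129 strain background. The comparison is between 3 WT libraries and 3 libraries labelled mKO, from mice with a muscle-specific knockout of Hnrnpu, which encodes a nuclear RNA-binding protein. The promoter that drives the deletion, the deleted exons and any allele that the WT mice carry are not stated in the sources used here. The labels number the replicates without naming animals, and every p-value therefore reflects library-to-library spread, which may be technical.

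p53 is a stress-activated transcription factor that binds a pair of short half-sites near its target genes. Its protein level is held down by the ubiquitin ligase Mdm2, which is itself a target, so that the pathway carries its own negative feedback. Its targets stop the cell cycle, promote apoptosis or adjust repair and metabolism, and in muscle several of them are known to respond to denervation, disuse and ageing. Most of the control of p53 acts on the protein, which RNA counts do not measure.

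Half-sites of the p53 consensus were searched in the promoter windows of 300 bases that RefSeq starts define in GRCm38.p6, from 250 bases before to 50 bases after each start. Of the 10 genes, 8 had a window (11 windows in all), and Zmat3 and Trp53inp1 had none in that table. A site was a pair of the 10-base p53 consensus half-sites, at most 13 bases apart, with both half-sites keeping the central C and G. The half-site reads the same on both strands. Sites with at most 3 mismatches to the 20 consensus positions were found for 4 genes, and a match with the fewest mismatches of each is shown. Capitals mark the 4 central bases of each half-site.
Cdkn1a: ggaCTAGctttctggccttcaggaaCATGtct
Ccng1: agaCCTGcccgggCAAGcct
Bax: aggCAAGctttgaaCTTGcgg
Bbc3: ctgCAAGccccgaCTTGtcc
The Cdkn1a site (chr17:29090906-29090937, plus strand) had 0 mismatches with a spacer of 12 bases and began 73 bases before the start. The Ccng1 site (chr11:40755462-40755481, minus strand) had 1 mismatch, no spacer, and began 195 bases before the start. Bax (chr7:45467079-45467099, minus strand) had 2 mismatches and a spacer of 1 base, and Bbc3 (chr7:16309486-16309505, plus strand) had 3 mismatches and no spacer. A second Bbc3 site, in the window of another start (chr7:16310156-16310177, plus strand), also had 3 mismatches, with a spacer of 2 bases, and is not printed. Among 27025 genes with a window, 0.074% held a site with 0 mismatches, 0.718% with at most 1, 4.71% with at most 2 and 17.4% with at most 3. A match describes letters only. Mdm2, Eda2r, Phlda3 and Plk2 had no such site in these windows, which does not cover introns or distant elements.

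The p53 targets did not move as a block in the mKO-labelled muscle with the main scaling (TMM, trimmed mean of M values). Cdkn1a, which encodes the cyclin-dependent kinase inhibitor p21, rose 5.50-fold, and Zmat3, Eda2r and Plk2 rose between 1.64 and 1.83-fold. Bax rose 1.34-fold with a call that depended on single libraries. Ccng1, by far the most abundant of the 10, fell 1.43-fold, while Mdm2, Trp53inp1, Bbc3 and Phlda3 did not pass the test. In counts, 6 of 10 were called (edgeR quasi-likelihood test, adjusted p under 0.05), against 37.0% of all 16650 tested genes. The number called higher was 5 of 10, against 18.2% of all tested genes. The number called lower was 1 of 10, against 18.9%. The median log2 fold change of the 10 was 0.50, and that of all tested genes was 0.02. Groups did not overlap for 6 of the 10 genes, against 49.3% of all tested genes. These directions depend on the scaling: with plain library totals 9 of the 10 were called higher and 0 lower, against 49.0% and 6.75%.

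Library totals ranged from 32108684 to 42344238 counts, and the first principal component separated the labels (66.7% of the variance). Hnrnpu was at 233 to 247 CPM in WT and 205 to 210 CPM in mKO-labelled libraries (edgeR adjusted p = 0.147), a count over all exons that does not check a deletion of some exons. With library totals the direction turned, at 200 to 209 CPM in WT and 236 to 250 CPM in mKO-labelled libraries. Levels are CPM, counts scaled to a common library size with TMM factors (trimmed mean of M values), unless said otherwise. The scaling bears on every direction here: with plain library totals the median over all tested genes was a log2 change of 0.49. Under library totals 87.9% of all calls were higher, against 49.0% with TMM. On that scale 9 of the 10 targets were called higher and 0 lower, against 49.0% and 6.75% of all tested genes. The exception was Ccng1 (log2 -0.05, edgeR adjusted p = 0.739).

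**Figure D1:**
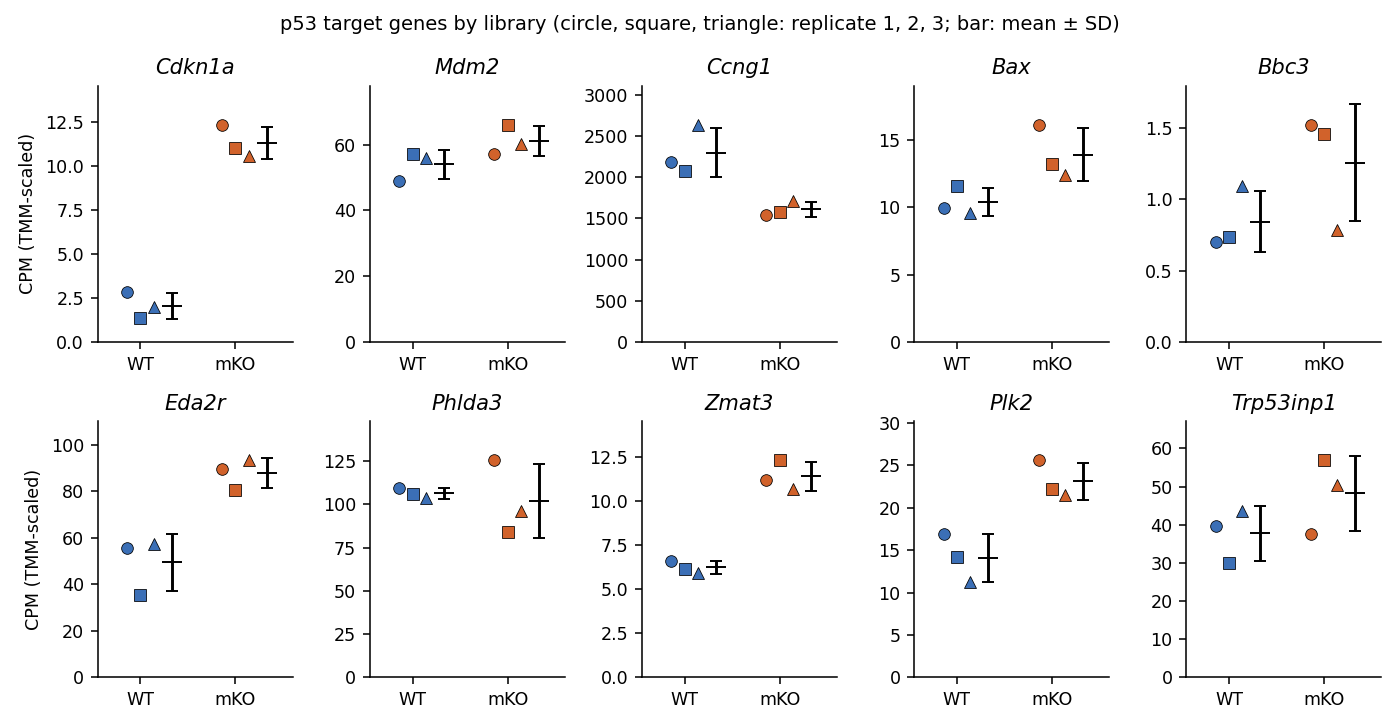
TMM-scaled CPM (linear axes from 0) of the 10 p53 target genes in each of 3 WT (blue) and 3 mKO-labelled (orange) libraries; symbols mark replicates 1 to 3 and black bars the mean ± SD. Cdkn1a, Zmat3, Eda2r, Plk2 and Bax lie higher in every mKO-labelled library, and Ccng1 lies lower in each.

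Of the genes grouped here with cell cycle arrest, Cdkn1a, Plk2 and Zmat3 were higher and Ccng1 was lower. Cdkn1a (ENSMUSG00000023067, chr17:29090979-29100722 in GRCm38, plus strand) encodes p21, which binds cyclin-dependent kinases and halts division. In order of replicate, WT libraries had 2.84, 1.38 and 1.99 CPM, and mKO-labelled libraries had 12.4, 11.02 and 10.6 CPM. Every mKO-labelled library was far above every WT library, although the WT values rest on only 45 to 85 counts. Its log2 fold change came to 2.46 (SE 0.22, adjusted p = 5.68e-06 by edgeR), larger than that of 98.0% of tested genes. It was called under all 16 alternative settings.

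Ccng1 (ENSMUSG00000020326, chr11:40748552-40755311, minus strand) encodes cyclin G1, a cyclin without a clear role in driving division that brings a phosphatase to Mdm2. It had 2184, 2076 and 2636 CPM in WT and 1540, 1574 and 1714 CPM in mKO-labelled libraries. The groups did not overlap, with every mKO-labelled library lower. On the log2 scale the difference was -0.51 (SE 0.12, adjusted p = 0.00544 by edgeR), with a 95% interval from -0.78 to -0.25. With library totals the values were 1875, 1763 and 2226 CPM against 1847, 1840 and 1977 CPM, which overlap, and the call ended.

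Plk2 (ENSMUSG00000021701, chr13:110395044-110400844, plus strand) encodes a polo-like kinase known as an early response gene. Its WT libraries had 16.9, 14.2 and 11.2 CPM and its mKO-labelled libraries 25.6, 22.2 and 21.5 CPM. All mKO-labelled libraries were higher, and the smallest gap was between WT replicate 1 and mKO replicate 3. This gave a log2 fold change of 0.72 (SE 0.15, adjusted p = 0.0026 by edgeR).

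Zmat3 (ENSMUSG00000027663, chr3:32334792-32366014, minus strand) encodes a zinc finger protein that binds RNA and takes part in growth control by p53. It had 6.61, 6.16 and 5.90 CPM in WT and 11.2, 12.3 and 10.7 CPM in mKO-labelled libraries. The replicates lay close together within each group and the groups were well apart. The fitted difference was log2 0.87 (SE 0.14, adjusted p = 0.000397 by edgeR), and leaving out each library in turn moved it only between 0.82 and 0.92.

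Of the genes grouped here with apoptosis, Eda2r was called higher under all 16 alternative settings, and Bax, Bbc3 and Phlda3 gave smaller or uncertain differences. Bax (ENSMUSG00000003873, chr7:45461697-45466898, minus strand) encodes the protein that forms pores in the outer mitochondrial membrane. Its levels were 9.92, 11.6 and 9.59 CPM in WT and 16.1, 13.2 and 12.4 CPM in mKO-labelled libraries. The groups did not overlap, but WT replicate 2 and mKO replicate 3 were close. Fitted over all libraries, the log2 change was 0.42 (SE 0.14, adjusted p = 0.0359 by edgeR). By edgeR, the call was lost on leaving out any of 4 libraries: WT replicate 1 (adjusted p = 0.0984) or 3 (0.118), or mKO replicate 1 (0.168) or 2 (0.0537). It was also lost with the replicate number as a block (0.055). Exons of Bax share 192 bases with the predicted gene Gm45808 on the same strand, which had at most 3 counts in any library.

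Bbc3 (ENSMUSG00000002083, chr7:16308393-16318205, plus strand) encodes PUMA, which frees Bax and its relatives from their inhibitors. It was the least expressed of the 10, with 0.701, 0.736 and 1.09 CPM in WT and 1.52, 1.46 and 0.783 CPM in mKO-labelled libraries, or 21 to 69 counts per library. Replicates 1 and 2 of the mKO label were above all WT libraries and replicate 3 was inside their range. A log2 fold change of 0.57 (SE 0.36) did not pass (edgeR adjusted p = 0.231), and its 95% interval from -0.20 to 1.34 spans 0. With library totals it was called higher (log2 1.04, edgeR adjusted p = 0.0258).

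Eda2r (ENSMUSG00000034457, chrX:97333840-97377216, minus strand) encodes a receptor of the tumour necrosis factor family for a form of ectodysplasin. It had 55.8, 35.5 and 57.2 CPM in WT and 89.6, 80.5 and 93.4 CPM in mKO-labelled libraries. WT replicate 2 was the lowest, and all mKO-labelled libraries were above all WT libraries. The fit put the log2 change at 0.83 (SE 0.16, adjusted p = 0.00159 by edgeR), and it was called without each library in turn (log2 0.63 to 0.94).

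Phlda3 (ENSMUSG00000041801, chr1:135766119-135769136, plus strand) encodes a small membrane-binding protein that opposes the kinase Akt. It had 110, 106 and 104 CPM in WT and 125, 83.9 and 95.9 CPM in mKO-labelled libraries. The WT libraries lay close together, whereas mKO replicate 1 was above them and replicates 2 and 3 were below. At log2 -0.06 (SE 0.14) the difference did not pass (edgeR adjusted p = 0.762), with a 95% interval from -0.36 to 0.24. Its sign turned with library totals (log2 0.41, edgeR adjusted p = 0.0308) and without mKO replicate 2 (log2 0.067, edgeR adjusted p = 0.759).

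Mdm2 and Trp53inp1, grouped here with feedback, did not pass the test with TMM scaling. Mdm2 (ENSMUSG00000020184, chr10:117688888-117710758, minus strand), the ligase that marks p53 for degradation, had 49.0, 57.1 and 56.0 CPM in WT and 57.1, 66.0 and 60.3 CPM in mKO-labelled libraries. WT replicate 2 and mKO replicate 1 were nearly level, so the groups overlapped. The estimated log2 change was 0.18 (SE 0.11, adjusted p = 0.233 by edgeR) and its 95% interval ran from -0.06 to 0.42. An increase as large as that of Cdkn1a or Zmat3 lies outside that interval, which holds for TMM scaling only. With library totals Mdm2 was called higher (log2 0.64, edgeR adjusted p = 0.000386), as were 49.0% of all tested genes. On that scale Cdkn1a was at log2 2.92 and Zmat3 at 1.34.

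Trp53inp1 (ENSMUSG00000028211, chr4:11156431-11174379, plus strand) encodes a nuclear stress protein that aids p53 activity and also acts in autophagy. It had 39.6, 29.8 and 43.7 CPM in WT and 37.5, 56.9 and 50.3 CPM in mKO-labelled libraries. Replicate 1 of the mKO label lay within the WT range and the other 2 lay above it. Its log2 fold change came to 0.35 (SE 0.17, adjusted p = 0.116 by edgeR), and it was called under 3 of 16 alternatives. These were the fit without mKO replicate 1 (log2 0.51, edgeR adjusted p = 0.0283), library totals (log2 0.82, 0.00114) and no low count filter (log2 0.35, 0.0295).

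**Figure D2:**
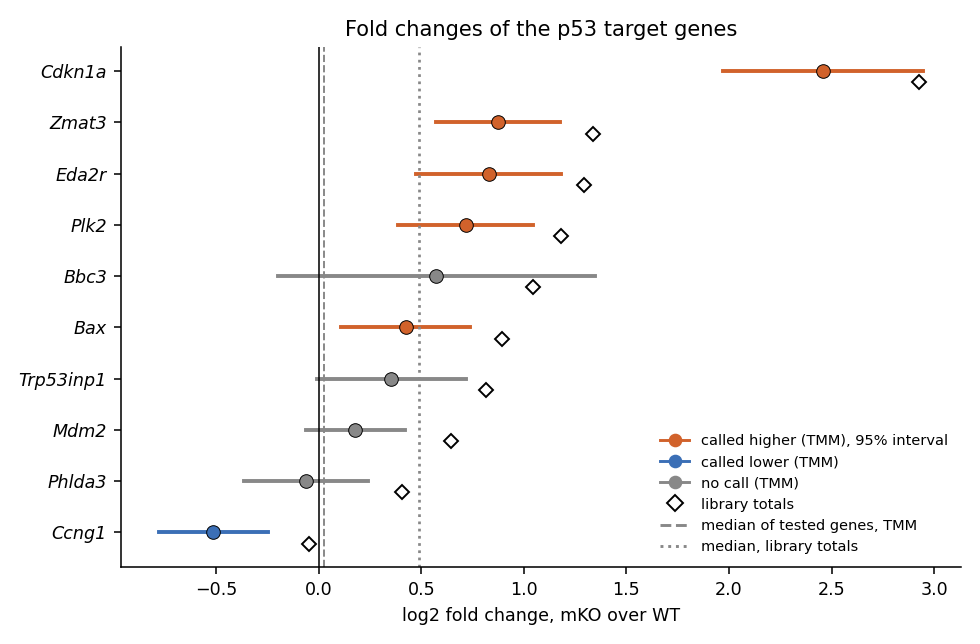
Log2 fold changes (mKO over WT) of the 10 p53 target genes with TMM scaling (filled points with 95% intervals, coloured by call) and with library totals (open diamonds); vertical lines give the median of all tested genes on each scale. Cdkn1a stands apart at 2.46, and library totals move every gene to the right, as they move the median of all tested genes to 0.49.

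Levels per length showed a wide range within these 10 genes. Expressed as CPM per kilobase of exon, WT means ran from 655 ± 84.6 (SD, n = 3) for Ccng1 to 0.397 ± 0.102 (SD, n = 3) for Bbc3. Ccng1 was above 99.6% of tested genes in WT on this scale, whereas Cdkn1a was above 35.5%. Next to Ccng1 came Phlda3 at 68.2 CPM per kilobase, then Mdm2 (10.7), Eda2r (8.40), Bax (6.57), Trp53inp1 (5.82) and Plk2 (5.03). Neighbours in that stretch from Mdm2 to Plk2 overlapped over the WT libraries and have no resolved order. Cdkn1a (0.930) and Zmat3 (0.544) followed, and these neighbours did not overlap.

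In mKO-labelled libraries the order was nearly the same, with Eda2r (14.9 CPM per kilobase) above Mdm2 (12.1) and Plk2 (8.24) level with Bax (8.81) and Trp53inp1 (7.45) within their spread. Cdkn1a was next at 5.10 CPM per kilobase and was above 71.1% of tested genes. Ccng1 held 88.3 to 90.1% of the summed CPM of the 10 genes in WT, and its share under the mKO label was 80.4 to 82.8%. Because of that, a sum over the 10 follows 1 gene. The sum was 2338 to 2926 CPM in WT and 1916 to 2070 CPM in mKO-labelled libraries. Without Ccng1 it was 262 to 291 CPM in WT and 348 to 376 CPM in mKO-labelled libraries, so the direction of a sum turned on 1 gene.

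**Figure D3:**
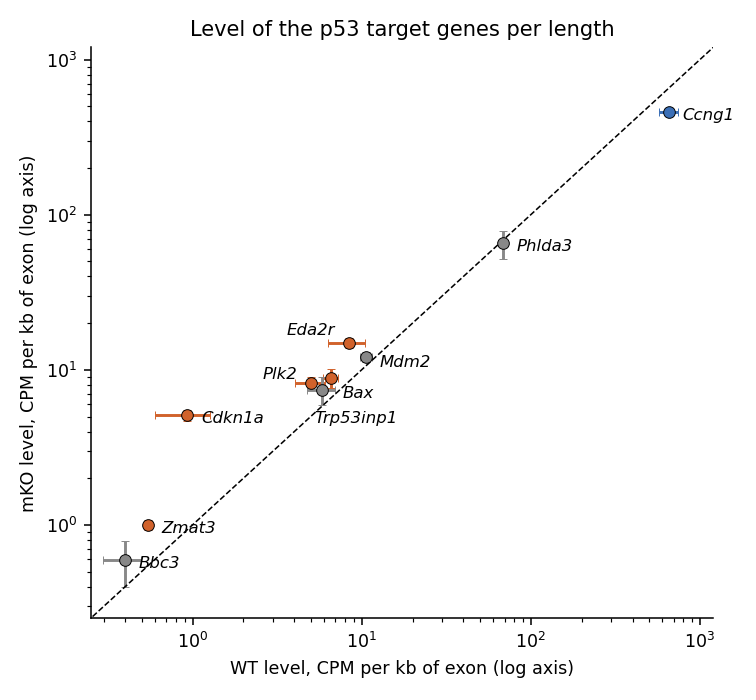
Mean level per kilobase of exon in WT (x axis) and mKO-labelled libraries (y axis), both on log axes, for the 10 p53 target genes; bars are SD over 3 libraries and the dashed line marks equal levels. Ccng1 is at the top right and below the line, and Cdkn1a is farthest above the line (0.930 in WT, 5.10 in mKO-labelled libraries).

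Trp53, which encodes p53 itself, differed little. It had 2.91, 2.94 and 2.41 CPM in WT and 3.31, 3.26 and 3.32 CPM in mKO-labelled libraries, all 3 of the latter higher, with a log2 fold change of 0.26 (SE 0.20, edgeR adjusted p = 0.32). With library totals it was called higher (log2 0.73, edgeR adjusted p = 0.00786). Of 15 listed genes of the p53 family and its regulators, 14 were tested, 2 were higher and 3 lower (against 18.2% and 18.9% of all tested genes), and the median log2 fold change was -0.08. With library totals the balance turned to 9 higher and 1 lower (against 49.0% and 6.75%), with a median of 0.39. Trp73, the relative that was not tested, did not pass the filter on low counts. No difference is read from its 0 counts in all mKO-labelled libraries.

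Cdkn2a, whose locus makes the p53 stabiliser Arf and the kinase inhibitor p16, was near 0 in WT. It had 0.134, 0 and 0 CPM in WT and 1.59, 0.561 and 1.43 CPM in mKO-labelled libraries, from 4 against 150 summed counts. The ratio was 29.0 with an exact binomial 95% interval from 11.1 to 108, which covers counting error only (edgeR adjusted p = 0.00068). A gene count does not separate the Arf and p16 transcripts. Ppp1r13l, which encodes the p53 inhibitor iASPP, was also higher (log2 1.39, edgeR adjusted p = 0.0391) at 0.408 against 1.08 CPM, with groups that overlapped. Its call held in 2 of 6 fits that left out 1 library: it was lost without WT replicate 1 (edgeR adjusted p = 0.109) or 3 (0.142) and without mKO replicate 2 (0.078) or 3 (0.166).

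Atm, the kinase that activates p53 after DNA breaks, was lower. It had 59.2, 57.2 and 63.6 CPM in WT and 29.6, 31.7 and 32.0 CPM in mKO-labelled libraries, without overlap (log2 -0.95, SE 0.10, edgeR adjusted p = 2.19e-05). It stayed lower with library totals (log2 -0.48, edgeR adjusted p = 0.00169). The p53 relative Trp63 (log2 -0.42, edgeR adjusted p = 0.04) and the acetyltransferase gene Kat5 (log2 -0.37, edgeR adjusted p = 0.0325) were lower with TMM scaling, and their signs turned with library totals (log2 0.05 and 0.10). Each held in 2 of 6 fits without 1 library, with adjusted p up to 0.16 for Trp63 (without WT replicate 3) and 0.106 for Kat5 (without WT replicate 1). Both were also lost without mKO replicates 1, 2 or 3 (adjusted p from 0.0814 to 0.118). Exons of Kat5 share 423 bases with Rnaseh2c on the opposite strand, and the kit named in the labels keeps no strand information. The kinase genes Atr (log2 0.10), Chek1 (0.53) and Chek2 (-0.17), the Mdm2 partner Mdm4 (-0.15) and the deubiquitinase gene Usp7 (-0.21) did not pass. Nor did Hipk2 (log2 -0.13), Trp53bp1 (-0.03) or Ep300 (0.25), and adjusted p of these 8 genes ran from 0.0716 to 0.852 by edgeR.

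A wider list of 35 other p53 targets also held calls in both directions. Of 32 tested, 13 were higher and 4 lower, against 18.2% and 18.9% of all tested genes, with a median log2 fold change of 0.28. With library totals 21 were higher and 4 lower, against 49.0% and 6.75%. The highest among those with the lowest p were Gadd45a, Zfp365 and Ckap2. Gadd45a, a stress gene of growth arrest and repair, went from 8.66 ± 2.45 to 61.5 ± 5.21 CPM (SD, n = 3; 7.09-fold, edgeR adjusted p = 3.22e-07). Exons of Gadd45a share 337 bases with the antisense gene E230016M11Rik, so a part of these reads cannot be assigned. Zfp365, which encodes a zinc finger protein of genome stability, went from 0.237 ± 0.06 to 3.63 ± 0.300 CPM (15.2-fold), and the noncoding gene Pvt1 from 4.59 ± 1.34 to 11.7 ± 0.136 CPM (2.57-fold). All 3 mKO-labelled libraries were above all WT libraries for each of these genes.

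Several raised genes of that list have other known roles. Ckap2 (0.154 to 2 CPM, 12.8-fold), Gtse1 and Psrc1 encode spindle and cell division proteins, and Gdf15, a secreted stress factor, also answers to the integrated stress response. Gtse1, Psrc1, Gdf15 and Pmaip1 are named here after their values were seen. Gdf15 had 1 count in WT and 71 in mKO-labelled libraries, a ratio of 55.0 with an exact 95% counting interval from 9.55 to 2201. Gtse1 had 3 against 51 counts, a ratio of 13.2 (4.26 to 65.9). Pmaip1, which encodes the apoptosis activator Noxa, rose from 0.268 to 1.44 CPM (log2 2.43, edgeR adjusted p = 0.00333).

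The 4 lower genes of that list serve metabolism, repair and adhesion. Tigar, a phosphatase that slows glycolysis, fell from 167 ± 14 to 94.6 ± 5 CPM (SD, n = 3; log2 -0.82, edgeR adjusted p = 0.000113). Rrm2b, the ribonucleotide reductase subunit of resting cells, fell from 64.7 ± 7.43 to 35.1 ± 3.10 CPM (log2 -0.88, edgeR adjusted p = 0.000119). Polk, a DNA polymerase that copies past lesions, had a log2 change of -0.77 (edgeR adjusted p = 0.000176), and the desmosome gene Perp one of -1.96 (0.00228). These falls were larger than the spread between libraries, and all 4 genes were also called lower with library totals (log2 -0.35 for Tigar, -0.42 for Rrm2b, -0.30 for Polk and -1.50 for Perp).

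Cell division genes were higher together with Cdkn1a. The list holds 20 genes that p21 lowers through the DREAM repressor complex when p53 is active. Of 18 tested, 13 were higher and 1 was lower, against 18.2% and 18.9% of all tested genes. Their median log2 fold change was 2.14, against 0.02 for all tested genes. With library totals 16 were higher and 1 was lower, against 49.0% and 6.75% of all tested genes. Mki67, the proliferation marker, rose from 2.84 ± 0.588 to 20.8 ± 0.651 CPM (SD, n = 3; 7.34-fold, edgeR adjusted p = 1.89e-07). The centromere gene Cenpf rose 9.56-fold, the topoisomerase gene Top2a 7.17-fold, the cyclin gene Ccna2 8.10-fold and the survivin gene Birc5 15.1-fold, the last from 6 against 121 counts. Aurka, a spindle kinase gene, was the 1 lower gene (7.38 to 2.06 CPM, log2 -1.84, edgeR adjusted p = 1.31e-05). The summed level of the 20 genes was 20.9 to 22.3 CPM in WT and 62.7 to 73.8 CPM in mKO-labelled libraries.

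**Figure D4:**
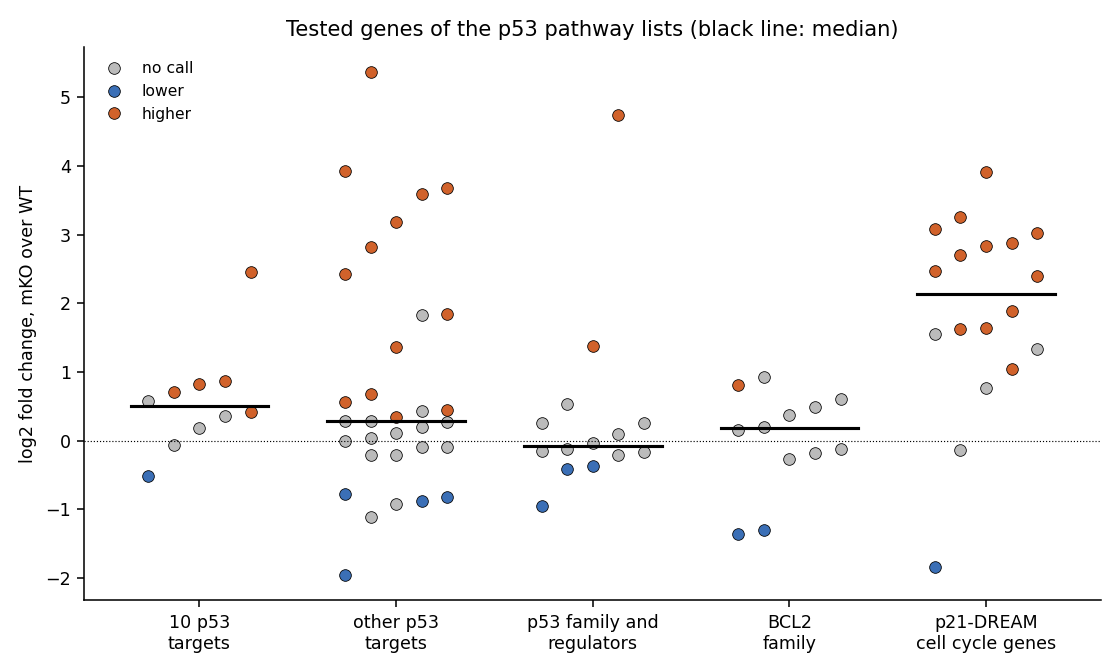
Log2 fold changes (mKO over WT, TMM scaling) of the tested genes in 5 lists, each point 1 gene coloured by its edgeR call and each black line the list median. The 10 p53 targets and the other p53 targets hold calls in both directions, and the cell division genes lie mostly above 1, with Aurka as the lower call.

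Relatives of Bax and PUMA had calls in both directions. Of 13 listed genes of the BCL2 family, 12 were tested, 1 was higher and 2 were lower, against 18.2% and 18.9% of all tested genes (median log2 0.18). With library totals 6 were higher and 1 was lower, against 49.0% and 6.75%. The list leaves out Pmaip1 (Noxa), which was counted with the other p53 targets and was higher (log2 2.43). Bcl2, which blocks apoptosis, had 14.1, 9.60 and 16.3 CPM in WT and 4.58, 7.30 and 4.27 CPM in mKO-labelled libraries (log2 -1.30, SE 0.23, edgeR adjusted p = 0.000796). Bcl2l11, which encodes the activator BIM, rose from 5.42 to 9.46 CPM (log2 0.80, edgeR adjusted p = 0.00155), and Hrk fell from 0.429 to 0.165 CPM (log2 -1.35, edgeR adjusted p = 0.049). The Hrk call lies close to the threshold and was lost without any 1 of the 6 libraries (edgeR adjusted p from 0.0747 to 0.183); 1 of 15 alternatives kept it.

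Ratios of levels per length do not depend on how libraries are scaled. The ratio of Bax to Bcl2 was 4.10, 6.998 and 3.43 in WT and 20.4, 10.5 and 16.8 in mKO-labelled libraries, without overlap. That of Cdkn1a to Cdkn1b, the gene of the related inhibitor p27, was 0.0940 ± 0.0263 in WT and 0.608 ± 0.0801 in mKO-labelled libraries (SD, n = 3). Mdm2 to Mdm4 went from 2.47 ± 0.216 to 3.10 ± 0.137, also without overlap, while Mdm2 to Trp53 overlapped at 15.8 ± 2.58 and 14.8 ± 1.23. Among 8 ratios computed, the exact two-sided permutation p was 0.1 for those without overlap, the smallest that 3 against 3 libraries can give, and 0.16 after Benjamini-Hochberg adjustment. It was 0.7 for Mdm2 to Trp53. Bax to the survival gene Bcl2l1 was 7.51 ± 1.4 against 7.71 ± 1.45 (exact permutation p = 0.8).

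Near relatives of the 10 genes had calls in both directions with TMM scaling. Of 17 listed, 15 were tested, 4 were higher and 1 was lower, against 18.2% and 18.9% of all tested genes, with a median log2 fold change of 0.05. Library totals gave 10 higher and 0 lower, against 49.0% and 6.75%. The kinase inhibitor genes Cdkn1b (log2 -0.21) and Cdkn1c (0.31) did not pass (edgeR adjusted p = 0.174 and 0.103), nor did Ccng2 (log2 0.05, adjusted p = 0.825) or Trp53inp2 (0.04, adjusted p = 0.815). The cyclin gene Ccni rose from 34.4 ± 1.30 to 69.0 ± 7.17 CPM (SD, n = 3; log2 1.01, edgeR adjusted p = 2.69e-05). Phlda1 (log2 1.02), Zmat1 (0.85) and Plk4 (0.79) rose, and Zmat2, a splicing factor gene, fell (log2 -0.57, but -0.11 with library totals, edgeR adjusted p = 0.478). The Plk4 call was lost without WT replicate 2 (edgeR adjusted p = 0.0588) or 3 (0.0598) and without mKO replicate 1 (0.0828) or 2 (0.0528).

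Genes around the Eda2r receptor were tested as a further list. Of 10 listed, 9 were tested, 4 were higher and 0 were lower, against 18.2% and 18.9% of all tested genes (median log2 0.53). Library totals gave 6 higher and 0 lower, against 49.0% and 6.75%. The ligand gene Eda had 3.51 ± 0.464 CPM in WT and 2.93 ± 0.270 CPM in mKO-labelled libraries and did not pass (log2 -0.26, edgeR adjusted p = 0.332). The sister receptor gene Tnfrsf19 rose (18.8 to 37.5 CPM, log2 1.00), as did Map3k14, the kinase of noncanonical NF-kB signalling (3.46 to 6.76 CPM, log2 0.97), its substrate gene Nfkb2 (log2 0.75) and Traf1 (log2 2.26). The edgeR adjusted p of these 4 genes ran from 0.000226 to 0.00166. Relb of the same signalling did not pass and had the other sign (log2 -0.38, edgeR adjusted p = 0.189). Edar (log2 0.53), Traf3 (0.37) and Traf6 (0.06) did not pass either, with edgeR adjusted p from 0.155 to 0.745.

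Markers of several cell types moved with the label. With TMM scaling, counts of these lists of 10 are read against 18.2% of all tested genes called higher and 18.9% called lower. Their counts with library totals are read against 49.0% called higher and 6.75% called lower. Fewer cells of a type and less RNA per cell cannot be told apart in whole muscle. All 10 markers of skeletal muscle fibres, the labelled tissue, were present, and their summed level was 319120 to 331670 CPM in WT and 197010 to 233790 CPM in mKO-labelled libraries, with 0 higher and 8 lower (5 lower with library totals). All 10 macrophage markers were higher on both scales, with sums of 283 to 342 CPM in WT and 591 to 989 CPM in mKO-labelled libraries. Endothelial markers were lower in 9 of 10, with sums of 299 to 391 against 190 to 205 CPM, but with library totals in only 3. Satellite cell markers were higher in 3 and lower in 1 of 10 (146 to 168 against 192 to 206 CPM), and with library totals 6 were higher and 0 lower. Their part in the changes of the p53 targets and of the cell division genes was not tested.

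Counts of the remaining marker lists also moved with the scaling; with library totals 49.0% of all tested genes were called higher and 6.75% lower. Among fibro-adipogenic progenitor markers 1 of 10 was higher and 1 lower, with sums of 2630 to 3127 against 2312 to 2825 CPM, and with library totals 7 were higher and 0 lower. Among smooth muscle and pericyte markers 1 was higher and 3 lower (1004 to 1166 against 657 to 755 CPM), and with library totals 3 were higher and 2 lower. Among Schwann cell markers 0 of 10 were called (48.6 to 56.4 against 36.8 to 83.6 CPM), and with library totals 2 were higher. T and B cell markers summed to 0.568 to 1.47 CPM in WT and 0.864 to 1.32 CPM in mKO-labelled libraries, and only 2 of 10 passed the count filter. Of these 2, Cd4 was called higher (log2 1.74, edgeR adjusted p = 0.03) and Cd79b was not called (log2 -0.73, edgeR adjusted p = 0.529). The Cd4 call held in 2 of 6 fits that left out 1 library. With library totals 1 was higher and 0 lower. The T cell markers Trac and Cd8a were at 0 counts in all WT libraries, and neither passed the count filter. Under the mKO label Cd8a had 2, 2 and 6 counts and Trac had 3, 1 and 4. The T cell marker Cd3e went the other way, with a summed count of 4 for WT against 1 for mKO. Cd3d had 1 against 1. No difference in T cells is read from such low counts.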

How the data were processed

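Per the labels' protocols, Trizol RNA of frozen gastrocnemius went into NEBNext Ultra RNA libraries. Each library has its own deposited table of unnormalized read counts by gene. The submitters' processing notes name Trimmomatic (0.36), STAR (2.5.2b), featureCounts from Subread (1.5.2) and the GRCm38 build. How strand, read pairs and multi-mapping reads were handled is not given in the sources used here. Per the file headers, reads were summed over the listed exons of each Ensembl gene, and the deposited exon lengths in bases gave the levels per kilobase.

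Of 49315 genes, 48970 matched a symbol. Groups came from the sample titles. Replicates differed beyond sampling noise (chi-square per degree of freedom of 20.9 to 57.7). The main test was edgeR 4.0.16 (R 4.3.3), quasi-likelihood, with TMM factors, its default filter by group (16650 genes kept), group as the only term and Benjamini-Hochberg adjustment over all tested genes at 0.05. SE is the standard error of the log2 value, and 95% intervals use the fitted degrees of freedom. On simulated counts for 16650 genes with 200 changed, 80% of genes changed 2-fold and 13% of genes changed 1.5-fold were recovered, and 3 of 96 calls were false. Since many more genes were called in the real comparison, these are not its recovery rates.

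The 10 genes and the 14 other lists (pathway and cell type) were chosen with earlier results of these data known. Named are the 10 genes, all tested p53 regulators, up to 6 called genes of each other pathway list by lowest p, genes behind counts of 5 or fewer, and Hnrnpu. Alternatives were DESeq2 1.42.0, limma-voom (limma 3.58.1), other scaling factors, other filters, abundant genes left out, a robust fit, a replicate block and leaving out each library. Same-numbered libraries deviated together at correlations of only -0.002 to 0.0224, so the numbers were not taken to pair samples.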

Additional observations from a re-analysis of the deposited data

How the results depend on the processing

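Over 16 alternatives, 145 of 159 values of the 10 genes kept their direction and their side of the threshold. Cdkn1a, Zmat3, Eda2r and Plk2 were called under all 16, Ccng1 under 15 and Bax under 11. With library totals 9283 genes were called in all. On that scale 9 of the 10 p53 targets were called higher and 0 lower, against 49.0% and 6.75% of all tested genes. Mdm2 (log2 0.64), Bbc3 (1.04) and Trp53inp1 (0.82) then passed, Ccng1 (-0.05) did not, and Phlda3 turned to 0.41. The median of all genes moves with that scaling by its construction. Phlda3 also turned with upper quartile factors (0.003) and without mKO replicate 2, where the cause was not tested; leaving out 1 library moved it between -0.24 and 0.067. Leaving out 1 library gave 4766 to 6255 genes called (27.9% to 36.2% of those tested), and 4 to 5 targets higher and 1 lower. Over all tested genes, these fits called 2350 to 3065 higher and 2416 to 3190 lower. With the replicate number as a block 5519 of 16650 tested genes were called, 2707 higher and 2812 lower. Of the targets 4 were then higher and 1 lower, and Bax was lost (edgeR adjusted p = 0.055). That block joins libraries that share only a number: 2 of 6 libraries correlated best with their own number. Of 160 other counts, 119 were within 1.5 times the main count. Counts per library were lowest for Bbc3 (21 to 69) and for Cdkn1a in WT (45 to 85), where counting error is largest; depth as a limit on their calls was not tested.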
